A study of Mus musculus with 6 samples.

Results

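The genes described here are 58 conserved targets of the microRNA let-7, chosen by gene symbol from 14002 genes in liver RNA-seq tables of 6 mice. All 58 symbols were found. The rule of choice used no measured value, but the genes were chosen with earlier results of these data known. The mice were C57BL/6 animals given a diet with 60% fat for 8 weeks. The labels give an age of 8 weeks without saying whether this is at the start of the diet. The 3 LKO mice carried a hepatocyte knockout of let7b/c2, the locus that encodes 2 let-7 microRNAs, and the 3 wild type mice did not. The diet was common to both groups. The sources used here do not name the Cre driver. Whole liver was sequenced from polyadenylated RNA, so each value sums all liver cell types. Fewer cells of a type and less RNA per cell cannot be told apart in such samples.

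let-7 is a family of microRNAs that rises as cells differentiate and is abundant in adult tissues, liver included. Its seed, bases 2 to 8 counted from the 5′ end, pairs with complementary sites in 3′ untranslated regions (UTRs) and lowers the stability and translation of those messenger RNAs. Its classical targets are the chromatin proteins of the Hmga family, the RNA-binding Igf2bp proteins, Ras genes, Myc and cell cycle genes such as cyclin D genes. The comparison asks which target messenger RNAs differ in level when 1 locus of the family is deleted. RNA-seq does not measure their translation.

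The locus deleted in LKO livers gives the first 2 of the mature sequences shown next, and let-7a, from another chromosome, shows what they share with the rest of the family. Sequences and positions are from RefSeq (GRCm38.p6), with the seed in capitals.
let-7b-5p, chr15:85707325-85707346, plus strand: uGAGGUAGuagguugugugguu
let-7c-5p, chr15:85706616-85706637, plus strand: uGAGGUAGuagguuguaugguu
let-7a-5p, chr13:48538239-48538260, minus strand: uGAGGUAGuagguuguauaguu
All 3 have the same seed. A second gene on chromosome 16, Mirlet7c-1, encodes the same mature let-7c, and let-7d, e, f, g and i have this seed as well. Mature microRNAs were not measured by these libraries, so neither the deletion nor the level of the remaining family members was checked here.

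Sites matching the seed were sought in the longest annotated 3′ UTR of each gene, on the transcript strand, in GENCODE M21. The 8mer is CTACCTCA, the 7mer-m8 is CTACCTC and the 7mer-A1 is TACCTCA. Both 7mers are contained in the 8mer, and a gene was classed by its strongest match. The first 6 sites shown next belong to the genes with the lowest adjusted p-values among the 58, Rdx is a highly expressed target with an 8mer, and Hmga2 is the best-known let-7 target. Each is a window of 24 bases in GRCm38, with the match in capitals.
Hmga1, chr17:27563275-27563298, plus strand: tctcctctgttcacaaaCTACCTC
Ccnd1, chr7:144930598-144930621, minus strand: caggttcctgttcacaaTACCTCA
Chd7, chr4:8867460-8867483, plus strand: caaagctaaaacagcatTACCTCA
Dtx2, chr5:136032704-136032727, plus strand: gaagcttaagctggagCTACCTCA
E2f6, chr12:16826402-16826425, plus strand: aatcacctagcgctctCTACCTCA
Bach1, chr16:87731984-87732007, plus strand: caagccaatggatttcCTACCTCA
Rdx, chr9:52087439-52087462, plus strand: ctctgagaacaaaataCTACCTCA
Hmga2, chr10:120364224-120364247, minus strand: cgccgacattcaatttCTACCTCA
Of the 58 genes, 56 (96.6%) held at least 1 match, against 16.9% of the 12767 genes with a 3′ UTR, and 28 (48.3%) held an 8mer, against 3.6%. The median 3′ UTR was 1981 bases long among the 58 and 1172.5 bases among all genes tested. Since target genes are recognised by such sites, these shares describe the list and are no finding. Hras and Myc held none in the UTR searched.

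The libraries held between 8549483 and 10764825 estimated reads, and a level of 3 reads corresponded to between 0.331 and 0.447 units of the deposited signal. LKO replicate 2 had 24.2% of its signal in its 10 highest genes, against 18.7% to 21.02% in the other 5 libraries. Each gene with a mean signal of at least 1 was tested by limma on log2(signal + 1), two-sided, with Benjamini-Hochberg adjustment over all 11168 genes tested. A gene is called raised or lowered in LKO at an adjusted p under 0.05. A log2 fold change is the LKO mean of log2(signal + 1) less the wild type mean, a scale that shrinks changes of low genes.

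Of the let-7 targets, Hmga1 and Ccnd1 were raised, no target was lowered and 54 were not called. Hmga2 and Acvr1c had 0 reads in all 6 livers, so 56 of the 58 were tested. The 2 raised genes are 3.57% of the 56, where 1.82% of all genes tested were raised and 1.69% were lowered (3.51% in either direction). The fold changes of the targets leaned upward, with 40 positive and 16 negative (71.4% positive), against 49.8% positive over all genes. Their median was 0.13 with quartiles of -0.01 and 0.33, and that of all genes was -0.00 with quartiles of -0.19 and 0.19. The 3 LKO livers gave medians of 0.18, 0.18 and 0.10 against the wild type mean. In the same livers the 15 tested mitochondrial transcripts had a median of -0.31, with 2 positive and 13 negative and none called, and a summed signal of 41140 to 52790 in LKO and 47080 to 63460 in wild type. Their part in the lean of the targets was not tested. At an unadjusted p under 0.05, 11 targets (19.6%) were higher in LKO and 0 lower, against 9.58% and 8.86% of all genes.

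The size of the changes was small for most targets. In 39 of 56 (69.6%) the log2 fold change was within 0.25 of 0, as in 61.4% of all genes, and in 55 it was within 1. The median standard error was 0.18 among the targets and 0.17 among all genes. The unadjusted 95% intervals of 45 targets spanned 0. For 49 of the 56 the upper bound lay under 1, and for 33 it lay under the log2 of 1.5. These limits stand for a doubling and a 1.5-fold increase of signal + 1. In low genes the same increases of the signal itself give smaller values, so the limits do not exclude them there. Differences inside an interval that spans 0 were not detectable with 3 mice a group.

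**Figure D1:**
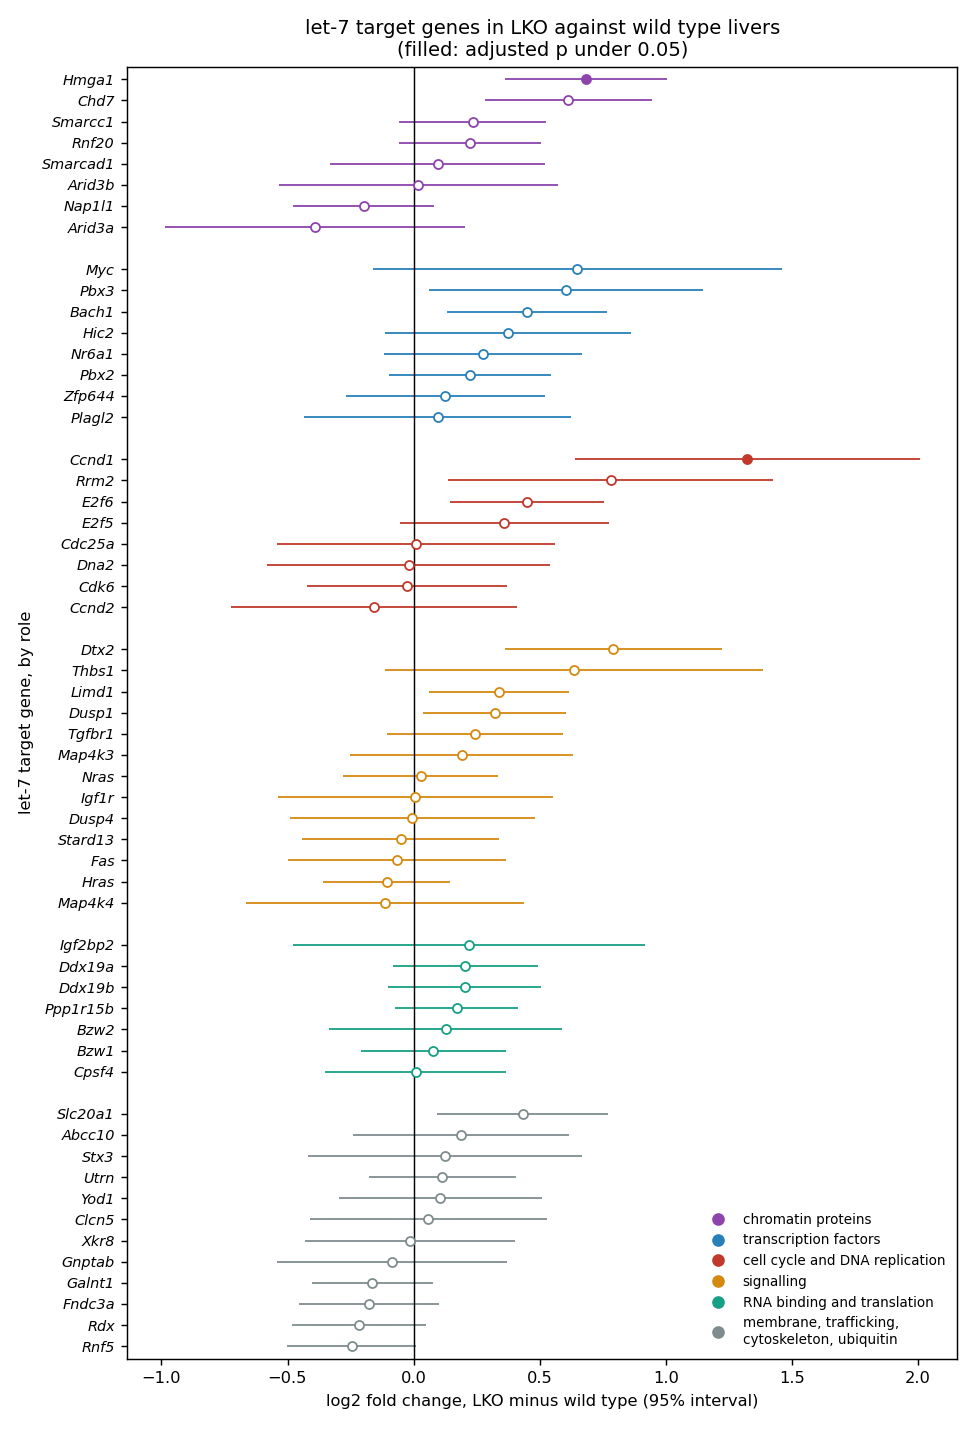
Log2 fold change of the 56 tested let-7 targets (x axis, LKO minus wild type on the log2(signal + 1) scale), 1 gene per row grouped by role, with unadjusted 95% intervals as bars. Filled points are the 2 genes with an adjusted p under 0.05, Hmga1 and Ccnd1. The intervals of 45 genes cross 0.

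Chromatin proteins held 1 of the raised genes. Of 8 tested, 1 was raised and 0 lowered, 6 fold changes were positive, and the median was 0.16. Hmga1 encodes an architectural protein that bends AT-rich DNA and is abundant in fetal tissue (ENSMUSG00000046711, chr17:27556497-27563674, plus strand, mm10). Its signal was 28.0, 36.2 and 27.1 in LKO livers, against 17.8, 17.8 and 19.7 in wild type livers. Every LKO value lay above every wild type value. The means were 30.4 ± 5.01 in LKO and 18.5 ± 1.08 in wild type (SD, n = 3 each), a log2 fold change of 0.68 ± 0.14 (SE) with a limma adjusted p of 0.0338. The call held in all 9 other settings of scaling, filter and model tried, with adjusted p from 0.0259 to 0.0479. With 1 library left out it held only without LKO replicate 1 (adjusted p 0.0390) and reached 0.113 without wild type replicate 2. Without LKO replicate 2, the library with the uneven signal, the fold change was 0.56 (adjusted p 0.106). Part of its reads was estimated, since its summed count of 699 reads in LKO and 457 in wild type was fractional before rounding, so sharing with near-identical copies is uncertain.

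Chd7, a chromatin remodeller of the CHD family, had 24.3, 28.6 and 22.1 units in LKO, against 16.1, 17.7 and 14.0 in wild type. The groups did not overlap and the fold change was 0.61 ± 0.15, with a limma adjusted p of 0.0561, so it was not called. It was called with robust moderation, at an adjusted p of 0.0459. Smarcc1, a core subunit of the BAF remodelling complex, had 32.2, 28.3 and 29.9 units in LKO and 26.0, 22.3 and 28.2 in wild type. Rnf20, a ubiquitin ligase for histone H2B, had 22.2, 21.4 and 24.3 units in LKO and 19.3, 18.04 and 20.4 in wild type. In both genes each LKO value lay above the wild type values by a small margin, with fold changes of 0.23 and 0.22 and limma adjusted p of 0.376 and 0.385. Nap1l1, a histone chaperone, had a fold change of -0.20, with 41.8, 44.3 and 51.3 units in LKO and 49.2, 50.2 and 58.5 in wild type. The groups overlapped. Arid3a, an AT-rich DNA-binding protein, had the lowest fold change of all 56 targets, -0.39 (limma adjusted p 0.477), at levels of at most 2.43 units. Hmga2, the close relative of Hmga1 with 7 seed matches in its 3′ UTR, had 0 reads in every liver. A count of 0 allows up to 3 reads in each library, that is 0.331 to 0.447 units.

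**Figure D2:**
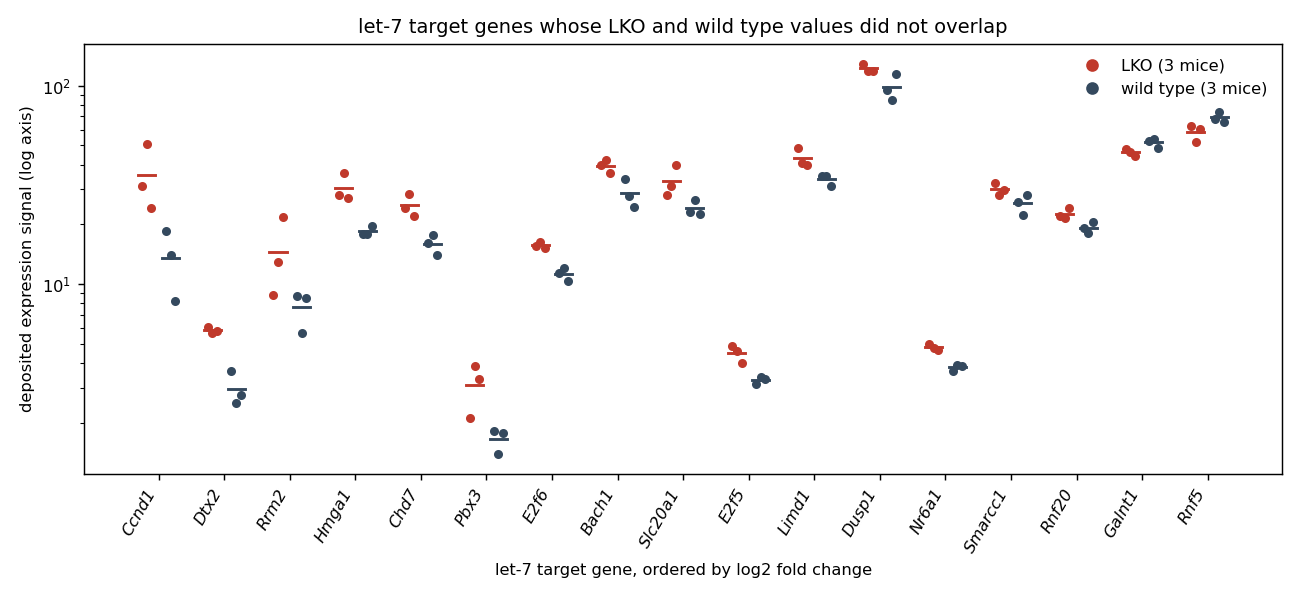
Deposited signal (y axis, log scale) of the 17 let-7 targets whose LKO and wild type values did not overlap, ordered by fold change. Each point is 1 mouse, lines are group means (3 mice each), with LKO left of wild type. In 15 genes all LKO points lie above all wild type points, and in Galnt1 and Rnf5 they lie below. The distance between group means is widest for Ccnd1.

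The 8 transcription factors all had positive fold changes, with a median of 0.32, and none was called. Bach1, a heme-regulated repressor of antioxidant genes, had 39.7, 42.0 and 36.3 units in LKO, against 34.0, 27.8 and 24.5 in wild type. Its fold change was 0.45 ± 0.14 with a limma adjusted p of 0.126. Pbx3, a homeodomain partner of Hox proteins, had 2.11, 3.87 and 3.34 units in LKO, against 1.82, 1.39 and 1.77 in wild type (0.61, limma adjusted p 0.219). Nr6a1, an orphan nuclear receptor of germ cells and early embryos, had 8 seed matches, the most of any of the 58 genes. Its signal was 5.01, 4.76 and 4.68 in LKO and 3.65, 3.91 and 3.87 in wild type, a fold change of 0.28 (limma adjusted p 0.448). The groups of these 3 genes did not overlap. Pbx2, related to Pbx3, overlapped, with 20.3, 16.2 and 19.2 units in LKO and 17.1, 15.9 and 14.2 in wild type. Myc, the proto-oncogene and a classical target, had 1.85, 1.49 and 4.46 units in LKO and 2.21, 0.757 and 0.773 in wild type. LKO replicate 3 was the highest and the groups overlapped, so that a fold change of 0.65 ± 0.36 had a limma adjusted p of 0.377.

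Cell cycle and replication genes held the other raised gene. Of 8 tested, 1 was raised and 0 lowered, 5 fold changes were positive, and the median was 0.18. Ccnd1 encodes cyclin D1, which activates Cdk4 and Cdk6 in G1 (ENSMUSG00000070348, chr7:144929931-144939925, minus strand, mm10). Its signal was 31.0, 50.9 and 24.2 in LKO livers, against 18.4, 14.0 and 8.20 in wild type livers. The groups did not overlap, and both were spread widely, with means of 35.4 ± 13.9 in LKO and 13.5 ± 5.13 in wild type (SD, n = 3 each). The log2 fold change was 1.32 ± 0.31, the largest of the 56 targets, with a limma adjusted p of 0.0479. It rested on 795 estimated reads in LKO and 327 in wild type, summed over each group and likewise fractional. The call was lost in 5 of the 9 other settings, over which the adjusted p ranged from 0.00937 to 0.118, and with each library left out except wild type replicate 1. Leaving out 1 library gave fold changes from 1.03 to 1.565, the lowest ones without LKO replicate 2 (1.03, adjusted p 0.151) and without wild type replicate 3 (1.03, adjusted p 0.104).

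Rrm2, the regulated subunit of ribonucleotide reductase, had 8.84, 12.95 and 21.8 units in LKO, against 8.72, 5.68 and 8.51 in wild type. LKO replicate 1 barely exceeded the wild type values, and the fold change of 0.78 ± 0.29 had a limma adjusted p of 0.185. Without that library it was 1.07 with an adjusted p of 0.0493. E2f6, a repressor of the E2F family, had 15.6, 16.4 and 15.3 units in LKO and 11.3, 12.1 and 10.4 in wild type (0.45 ± 0.14, limma adjusted p 0.114). E2f5, another repressive E2F, had 4.88, 4.61 and 4.01 units in LKO and 3.13, 3.41 and 3.31 in wild type (0.36, limma adjusted p 0.337). All 3 genes had groups that did not overlap. Cdk6, a partner kinase of cyclin D1, gave 18.9, 22.3 and 14.1 units in LKO and 19.3, 20.2 and 16.2 in wild type, a fold change of -0.03 with a 95% interval from -0.42 to 0.37. The other tested members Cdc25a, Dna2 and Ccnd2 lay between -0.16 and 0.01.

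In the signalling genes, 13 were tested, none was called, 8 fold changes were positive and the median was 0.03. Dtx2, a Deltex ubiquitin ligase linked to Notch signalling, had 6.07, 5.66 and 5.79 units in LKO, against 3.65, 2.52 and 2.76 in wild type. The LKO values were close together and all above wild type, with a fold change of 0.79 ± 0.19 and a limma adjusted p of 0.0574. Limd1, a LIM domain scaffold, had 48.5, 40.6 and 39.9 units in LKO and 35.2, 34.9 and 31.2 in wild type (0.34, limma adjusted p 0.183). Dusp1, a phosphatase that inactivates MAP kinases, had 129, 119 and 119 units in LKO and 95.6, 84.9 and 114 in wild type (0.32, limma adjusted p 0.210).

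The LKO and wild type values of the classical signalling targets of let-7 overlapped. Nras gave 17.3, 15.2 and 18.8 units in LKO and 15.6, 17.0 and 17.5 in wild type, a fold change of 0.03 with a 95% interval from -0.28 to 0.34. Hras gave 42.1, 37.8 and 44.2 units in LKO and 45.4, 45.8 and 42.4 in wild type, a fold change of -0.11 with an interval from -0.36 to 0.15. Both encode Ras GTPases, and for each the interval spanned 0. Igf1r, the IGF-1 receptor, was barely detected, with 1.45, 1.49 and 1.67 units in LKO and 1.302, 2.14 and 1.22 in wild type. It held 3 seed matches, and its fold change was 0.01. Acvr1c, the activin receptor-like kinase ALK7 that is best known from fat cells, had 0 reads in all livers.

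All 7 genes of RNA binding and translation had positive fold changes between 0.01 and 0.22, with a median of 0.17, and none was called or free of overlap. Igf2bp2, an RNA-binding protein of the IMP family, gave 0.923, 2.68 and 1.56 units in LKO and 0.911, 1.01 and 1.99 in wild type (0.22, limma adjusted p 0.757). Ppp1r15b, which directs a phosphatase to eIF2α, was much higher, with 136, 148 and 136 units in LKO and 138, 120.2 and 116 in wild type. Bzw1, a translation regulator, gave 106, 109 and 109 units in LKO and 124, 94.9 and 91.8 in wild type. Both genes overlapped. Ddx19a and Ddx19b are near-identical copies with fractional counts, so the division of reads between them is uncertain.

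The 12 genes of membranes, trafficking, cytoskeleton and ubiquitin were evenly split, 6 positive and 6 negative, with a median of 0.02 and none called. Slc20a1, a sodium-phosphate cotransporter, had 28.1, 31.4 and 39.98 units in LKO, against 23.2, 26.5 and 22.6 in wild type (0.43, limma adjusted p 0.160). Galnt1, which starts mucin-type O-glycosylation, had 47.7, 46.3 and 44.1 units in LKO and 52.9, 53.9 and 48.4 in wild type (-0.16, limma adjusted p 0.462). Rnf5, a ubiquitin ligase of the endoplasmic reticulum, had 62.3, 52.1 and 60.5 units in LKO and 67.5, 74.05 and 66.0 in wild type (-0.25, limma adjusted p 0.291). Slc20a1 was higher and Galnt1 and Rnf5 were lower in LKO without overlap. Rdx, radixin, which links actin to the plasma membrane, had 152, 147 and 140.3 units in LKO and 190.6, 147 and 175 in wild type (-0.22, limma adjusted p 0.371). LKO was not higher in this gene, which carries an 8mer.

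Taking all roles, 15 of the 56 tested targets (26.8%) were higher in LKO without overlap and 2 (3.57%) were lower. Over all genes tested, 12.2% were higher and 11.9% lower without overlap. The role subsets contributed 4 of 8 cell cycle genes, 4 of 8 chromatin proteins, 3 of 8 transcription factors, 3 of 13 signalling genes, 0 of 7 genes of RNA binding and translation and 1 of 12 in the last subset.

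Levels differed widely between targets. Per kilobase of merged exons, Rnf5 (43.0 units per kb over all 6 livers), Rdx (34.2), Dusp1 (33.3), Bzw1 (26.2) and Ppp1r15b (23.6) were the highest, and Igf1r (0.092) was the lowest of those tested. Hmga1 had 14.3 units per kb in LKO and 8.68 in wild type, and Ccnd1 had 7.52 in LKO and 2.87 in wild type. Hmga1 ranked 7 and Ccnd1 ranked 15 of the 58 by level per kilobase, and none of the 5 highest was called.

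**Figure D3:**
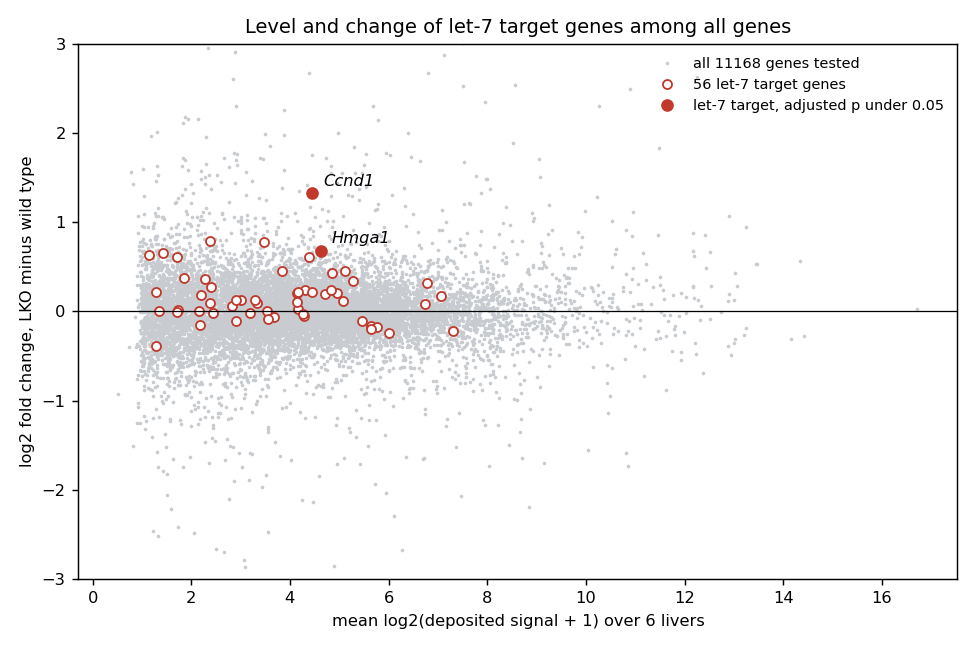
Log2 fold change (y axis, LKO minus wild type) against mean log2(signal + 1) over 6 livers (x axis) for 11168 tested genes in grey and the 56 let-7 targets in red, filled where called. The y axis stops at 3 in either direction, which leaves 12 genes outside. Most targets lie near 0 at all levels, with Hmga1 at 0.68 and Ccnd1 at 1.32.

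Among the targets, the medians did not fall in the order of seed match strength. The 26 tested targets with an 8mer had a median fold change of 0.12, and none was called. The 19 with a 7mer-m8 as strongest match had a median of 0.13, with Hmga1 raised. In the 9 targets with a 7mer-A1 alone the median was 0.32, with Ccnd1 raised, and Hras and Myc without a match had a median of 0.27. By number of matches the median was 0.17 for 29 genes with 1, 0.13 for 17 genes with 2 and 0.01 for 8 genes with 3 or more. These medians are descriptions of small groups and were not tested against each other. Over all tested genes the class medians were 0.04 for 394 genes with an 8mer, 0.04 for 735 with a 7mer-m8, 0.02 for 693 with a 7mer-A1 and -0.01 for 8862 without a match.

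**Figure D4:**
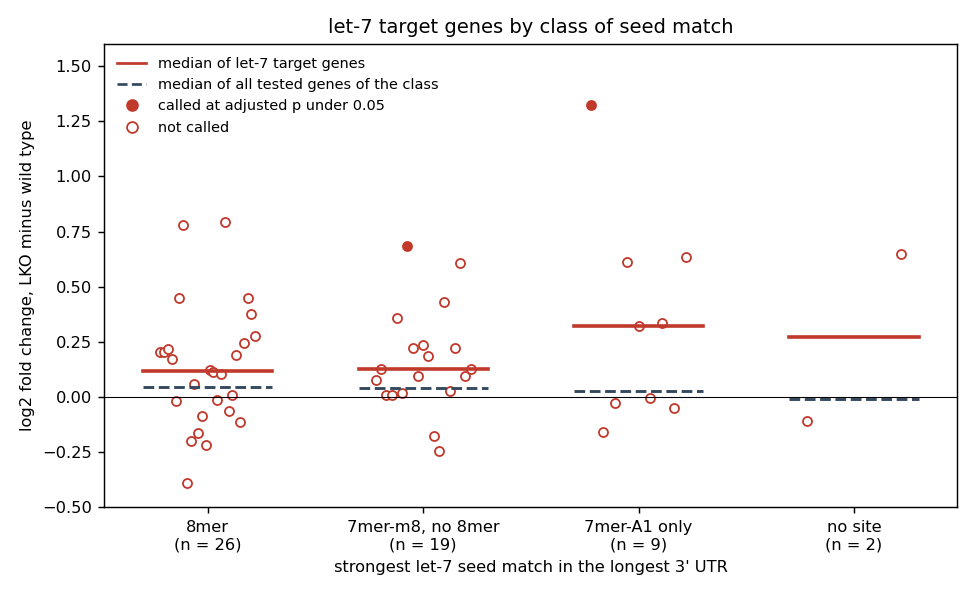
Log2 fold change (y axis, LKO minus wild type) of the 56 tested let-7 targets by strongest seed match in the longest 3′ UTR (x axis), 1 point per gene, filled where called. Red lines are medians of the targets (0.12, 0.13, 0.32 and 0.27) and dashed lines those of all tested genes of the class. The highest point is Ccnd1, in the 7mer-A1 class.

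Genes around the targets were read for comparison. Over all genes tested, 1.82% were raised, 1.69% were lowered, 49.8% had positive fold changes and 12.2% were higher in LKO without overlap. Of 18 tested genes of let-7 processing and silencing, such as the deadenylase scaffold Cnot1 (0.13) and the decay helicase Ddx6 (-0.03), 0 were called, 16 fold changes were positive and the median was 0.10. Of 21 tested cell cycle genes outside the target list, 0 were called, 8 were positive and 13 negative, with a median of -0.07. Cdkn1a, the p21 inhibitor, varied widely within groups, with 42.7, 53.7 and 97.3 units in LKO and 57.6, 99.2 and 269 in wild type. Ccnd3, a sister of Ccnd1, had a fold change of -0.13 and Mki67, a proliferation marker, of 0.17. Of 17 Ras and insulin pathway genes, 1 was raised and 0 were lowered, with a median of 0.04. The 2 highest, the kinase Map2k2 and the insulin receptor Insr, gave 0.04 and 0.21. The raised gene was Akt1, a kinase of insulin signalling, with 64.9, 89.0 and 84.0 units in LKO, against 54.2, 45.4 and 44.4 in wild type, without overlap (0.71 ± 0.14, limma adjusted p 0.0303). Akt1 held a 7mer-m8 in its longest 3′ UTR and Insr an 8mer, so this list is not free of seed matches. Of 9 fetal liver genes sought, 5 were among the genes measured and 2 were tested, Peg3 (0.15) and Cd24a (0.36), neither called. Afp, the fetal serum protein, had 1.45, 1.64 and 0.446 units in LKO and 0.391, 0.126 and 0.442 in wild type, under the filter. Also under the filter, Igf2 had means of 0.217 units in LKO and 0.281 in wild type, and Gpc3 of 0.927 and 0.955.

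Markers of liver cell types differed between the groups for some lists. Over all genes tested, 1.82% were raised, and 12.2% were higher and 11.9% lower in LKO without overlap. The 12 Kupffer cell and macrophage markers all had positive fold changes, 5 were raised and 10 did not overlap. Their summed signal was 209.5 to 304 in LKO and 139 to 157 in wild type, and their median fold change was 0.81. The raised markers were the lectin Clec4f (0.83, limma adjusted p 0.0217), the growth factor receptor Csf1r (0.96, adjusted p 0.0165), C1qc, Vsig4 and Timd4, while Cd5l gave 0.61 (adjusted p 0.0537). All 10 hepatocyte markers were tested and none was called, with a summed signal of 160400 to 246900 in LKO and 152400 to 191800 in wild type, most of it from Alb. Of the 10, 8 fold changes were positive with a median of 0.38, 4 were higher and 1 was lower in LKO without overlap, and Alb gave 0.03 and Trf 0.57. Sinusoidal endothelial markers were positive in 10 of 10, 0 were called, and 5 were higher and 0 lower in LKO without overlap. Their sums were 191 to 222 units in LKO and 159 to 179 in wild type (Eng 0.16, Clec4g 0.39). Stellate cell and fibroblast markers summed to 175 to 211 units in LKO and 158 to 184 in wild type, with 0 called (Dcn 0.04, Reln 0.22). Of these 10 markers, 9 fold changes were positive with a median of 0.22, and 2 were higher and 0 lower in LKO without overlap. Cholangiocyte markers summed to 35.9 to 70.7 units in LKO and 26.1 to 50.8 in wild type, with 3 of 7 tested and 0 called (Spp1 1.02). T, NK and B cell markers summed to 7.74 to 10.2 units in LKO and 3.15 to 4.04 in wild type, with Cd4 raised (1.43, limma adjusted p 0.0203) and Ptprc at 0.43. Neutrophil markers were all under the filter, with sums of 1.04 to 1.67 units in LKO and 0.260 to 0.773 in wild type. Hmga1, Ccnd1 and the 13 other targets that were higher in LKO without overlap were thus higher in the same livers as the macrophage and endothelial sums, and the part of these cell types in their values was not tested.

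**Figure D5:**
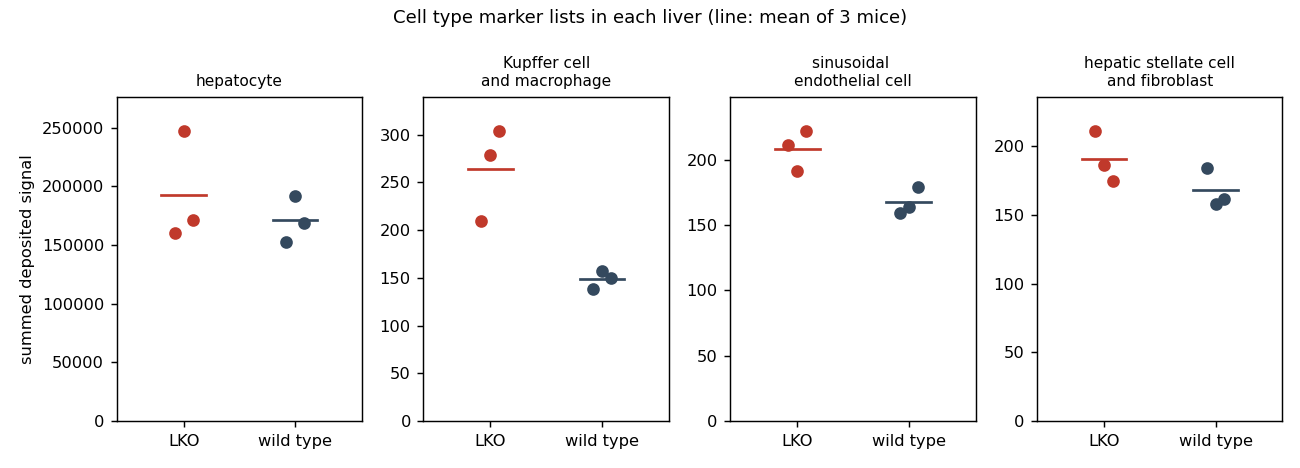
Summed deposited signal (y axes, linear from 0) of 4 cell type marker lists in each liver, with 1 point per mouse, LKO left of wild type and lines at the mean of 3 mice. Kupffer cell and sinusoidal endothelial sums do not overlap between groups, while hepatocyte and stellate cell sums do.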

How the data were processed

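Total liver RNA of 3 LKO and 3 wild type mice was sequenced from TruSeq Stranded mRNA libraries, per the labels' protocols. RSEM 1.2.22, STAR 2.5.1, Trimmomatic 0.36, Picard 1.84, bcl2fastq 2.17, edgeR and build mm10 are listed, in no stated role, per the submitters' processing notes. The authors deposited 1 expression signal per gene and mouse, with no unit in the file headers. From the values, each is an estimated count times 1 factor per library. Divided by that factor, 82.0% to 83.1% of positive values per library were whole (tolerance 0.005 reads). Since the rest were fractional, a model on the log scale was chosen.

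Genes with a mean signal of at least 1 were tested with limma 3.58.1 in R 4.3.3 on log2(signal + 1), with empirical Bayes moderation, a mean-variance trend and no block. The test was checked on simulated data. Nothing in the labels ties samples to batches. The p-values rest on the spread between these 3 mice a group, moderated towards that of genes of similar level. No 2 libraries agreed within counting noise. The 95% intervals of fold changes come from the limma standard errors, so they rest on the spread between mice, moderated likewise. Floors from reads cover counting error only.

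The 58 genes, their roles, the other gene lists and the cell type markers were chosen with earlier results of these data known, so lists are described by counts and medians without a test. Genes named are those called, those without overlap, the 2 highest and the most changed of each role, those not detected, the classical targets and, in other lists, called genes and the 2 highest. Arid3a, Cdc25a, Dna2, Ccnd2, Ddx19a, Ddx19b, Mki67, Afp, Igf2 and Gpc3 were added after their values were seen. Some genes that the rule or the lists hold are not reported here. Correlations between targets were not computed, since each group has only 3 mice. UTRs came from GENCODE M21 (GRCm38, the assembly of mm10), in which 13977 of 14002 identifiers were found.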

Additional observations from a re-analysis of the deposited data

How the results depend on the processing

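Alternatives were pseudocounts of 0.1 and 5, no filter, a mean of at least 5, an equal total per library, median-of-ratios factors, limma-voom on estimated counts, robust moderation, the replicate block and each library left out. The number of raised targets was 2, and it was 1 with a pseudocount of 0.1, with no filter, with a mean of at least 5 and with limma-voom. It was 0 to 2 with 1 library left out, namely 0 without LKO replicate 2, LKO replicate 3, wild type replicate 2 or wild type replicate 3. No target was lowered under any of these. The median fold change of the targets was 0.064 with an equal total per library, where that of all genes was -0.07, and 0.10 to 0.21 with a library left out. Targets without overlap numbered 20 to 27 then (35.7% to 48.2%), against 17. Over all genes the share without overlap was then 32.3% to 38.7%, against 24.2%, and without LKO replicate 1 that of the targets (35.7%) was below that of all genes (38.7%). These shares pool both directions. By direction, 16 to 23 targets were higher and 2 to 5 lower in LKO, with 17 and 3 without LKO replicate 1. The shares of all genes were not split by direction there. Over all genes, 76 to 277 were raised and 79 to 263 lowered with a library left out, against 203 and 189. Ccnd1 lost its call with a pseudocount of 0.1 (adjusted p 0.0532), no filter (0.0753), a mean of at least 5 (0.0539), limma-voom (0.0568) and robust moderation (0.118). Fold changes near 0 changed sign: Igf1r was -0.0011 with a pseudocount of 5 and -0.032 with an equal total, and Nras was -0.037 with an equal total. With a library left out Igf1r ran from -0.086 to 0.17, Nras from -0.040 to 0.11, Cdk6 from -0.17 to 0.14, Igf2bp2 from -0.024 to 0.44 and Bzw1 from -2.5e-05 to 0.21. The cause was not tested. Searching the union of annotated 3′ UTRs again gave 28 targets with an 8mer and 56 with a match. Replicate numbers are not said to pair mice: correlations of deviations were 0.05, 0.03 and 0.05, though each sample correlated best with its own number. With the replicate block 3 targets were raised, Chd7 being the third (adjusted p 0.0481), beside 217 raised and 199 lowered genes. Genes under about 3 reads a library, as Hmga2 and Acvr1c, are beyond this depth.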

Other observations

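Genes of the comparison lists that are not let-7 targets of the list gave the following values. Dicer1, the ribonuclease that cuts microRNA precursors, had 53.0, 51.7 and 45.7 units in LKO livers, against 43.6, 33.6 and 36.0 in wild type. The groups did not overlap, with a fold change of 0.41 ± 0.13 and a limma adjusted p of 0.133. Ccne1, the cyclin that activates Cdk2, had 4.22, 3.87 and 4.79 units in LKO, against 2.60, 1.14 and 1.44 in wild type. These values did not overlap, with a fold change of 0.99 ± 0.25 and a limma adjusted p of 0.0631. These genes were chosen after their values were seen.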
